A study of Mus musculus with 7 samples.

Results

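The genes described here encode 39 lysosomal hydrolases and membrane proteins, read by gene symbol from a count table of 55341 gene names in sorted mouse microglia. All 39 were found and all 39 passed the filter on low counts, which left 15257 genes for testing, and the lowest count of any of the 39 in any library was 96. They comprise 12 glycosidases, 5 sulfatases (a sulfamidase counted among them), 6 lipid hydrolases, 4 enzymes in a class of peptidases and a nuclease, 3 activator or cofactor proteins, 2 cholesterol transfer proteins and 7 membrane proteins. The microglia came from female 5xFAD mice on a C57BL/6 background that were 14 weeks old. These mice carry mutant human APP and PS1 transgenes driven by the Thy1 promoter in neurons, so that the host genotype was the same in both groups, while the graft consisted of embryonic cortical cells from wild-type (WT) mice. Bulk RNA-seq compared CD11b+CD45low cells sorted 4 weeks after injection from inside the WT grafts (3 libraries) with the same population sorted from small pieces of cortex near the transplant (4 libraries, outside the graft). The comparison asks how microglia found within the WT graft differ from microglia in the transgenic cortex around it. The sides differ in more than the transgenes, because the graft was injected as embryonic cells. The paper reports amyloid beta plaques inside WT grafts at the graft age sampled here. It also holds that injury or graft placement probably caused the early invasion of host cells. The part of each in the differences below was not tested. The labels do not tie libraries to animals, so a P value measures the spread between these libraries, which may be partly technical.

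Lysosomes are the acidic compartments in which phagocytes break down what they take up. Soluble hydrolases act there in series on glycans, glycosaminoglycans, sphingolipids, neutral lipids, proteins and nucleic acids, small activator proteins present membrane lipids to some of them, and heavily glycosylated membrane proteins line the compartment. Loss of single members causes the inherited lysosomal storage diseases. Many lysosomal genes share a short promoter element bound by transcription factors of the MiT/TFE family, and microglia, the resident macrophages of the brain, are rich in lysosomal transcripts.

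Between 18644807 and 25882122 reads were counted on genes per library. Microglial markers (Cx3cr1, P2ry12, Tmem119, Sall1, Fcrls, Siglech, Csf1r and Itgam) summed to between 30027 and 34592 CPM (library-size-scaled counts, with TMM factors) inside the graft and between 33838 and 40532 CPM outside it, so the labelled cell type was present in every library. Of these 8 markers, 7 were lower inside and only Itgam was higher, with log2 fold changes (inside over outside) from -0.46 for P2ry12 to 0.046 for Itgam. For 3 of the 8 every inside library lay below every outside library, against 5.02% of all genes tested. None had an adjusted P below 0.05 in edgeR or voomWithQualityWeights, the tests described below (lowest 0.185 and 0.0854). Other cell types were measured beside microglia. The 10 monocyte markers summed to 731, 88.98 and 1493 CPM in inside graft 1, 2 and 3 and to between 9.23 and 36.1 CPM outside, with 9 of 10 higher inside and Chil3 the largest part of the sum. The 9 markers of border-associated macrophages summed to 651, 396 and 644 CPM inside and to between 533 and 633 CPM outside, most of it Stab1. Of the 8 that were tested, 7 were higher inside and only Stab1 was lower. Mrc1 stood at 61.2, 7.81 and 48.6 CPM in inside graft 1, 2 and 3 against 4.18 to 14.2 CPM outside. The 8 markers of dividing cells summed to 88.0 to 128 CPM inside and 10.98 to 38.4 CPM outside. Markers of neurons summed to at most 10.99 CPM in any library, with Slc17a7, Gad1 and Dcx at 0 inside. Astrocyte markers summed to 249 to 299 CPM inside and 327 to 352 CPM outside, nearly all of it Slc1a3 with Gja1 at 0 throughout, and oligodendrocyte markers to 155 to 165 CPM in all libraries. The part of these cells in the results below was not tested, and in bulk libraries fewer cells of a type and less RNA per cell cannot be told apart.

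Lysosomal transcripts were abundant in every library, and their levels spanned a wide range. On the TPM scale (counts divided by exon length and scaled to a common sum, which allows levels of different genes to be compared), the mean over the 7 libraries ran from 5007 TPM for Lgmn, which encodes the asparaginyl endopeptidase legumain, to 7.38 TPM for Gla, the α-galactosidase, a ratio of 678. There were 8 genes at 1000 TPM or more and 23 at 100 TPM or more. The first 8, in order of mean TPM, were Lgmn, Laptm5 (4168 TPM), Cd68 (3369 TPM), Psap (3274 TPM), Grn (2687 TPM), Hexa (2396 TPM), Lamp1 (2051 TPM) and Ctsa (1477 TPM), and together they held 79.6% of the summed TPM of the 39 genes. Lgmn stood above 99.9% of all genes tested in mean TPM and Gla above 38.5%. In 34 of 38 neighbouring pairs of this order the ranges over the 7 libraries overlapped, though 11 of the 34 kept their order within each of the 7 libraries, among them Lgmn over Laptm5, Psap over Grn, Grn over Hexa and Hexa over Lamp1. The 4 pairs that did not overlap were Lamp1 over Ctsa, Ctsa over Pla2g15, Pla2g15 over Asah1 and Arsb over Neu1. Within classes, Hexa led the glycosidases, Arsb (133 TPM) the sulfatases, Pla2g15 (815 TPM) the lipid hydrolases, Lgmn the peptidases, Psap the activators, Npc2 (339 TPM) the cholesterol transfer proteins and Laptm5 the membrane proteins. The plot of levels shows that this order was set by the gene far more than by the side of the graft border.

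**Figure D1:**
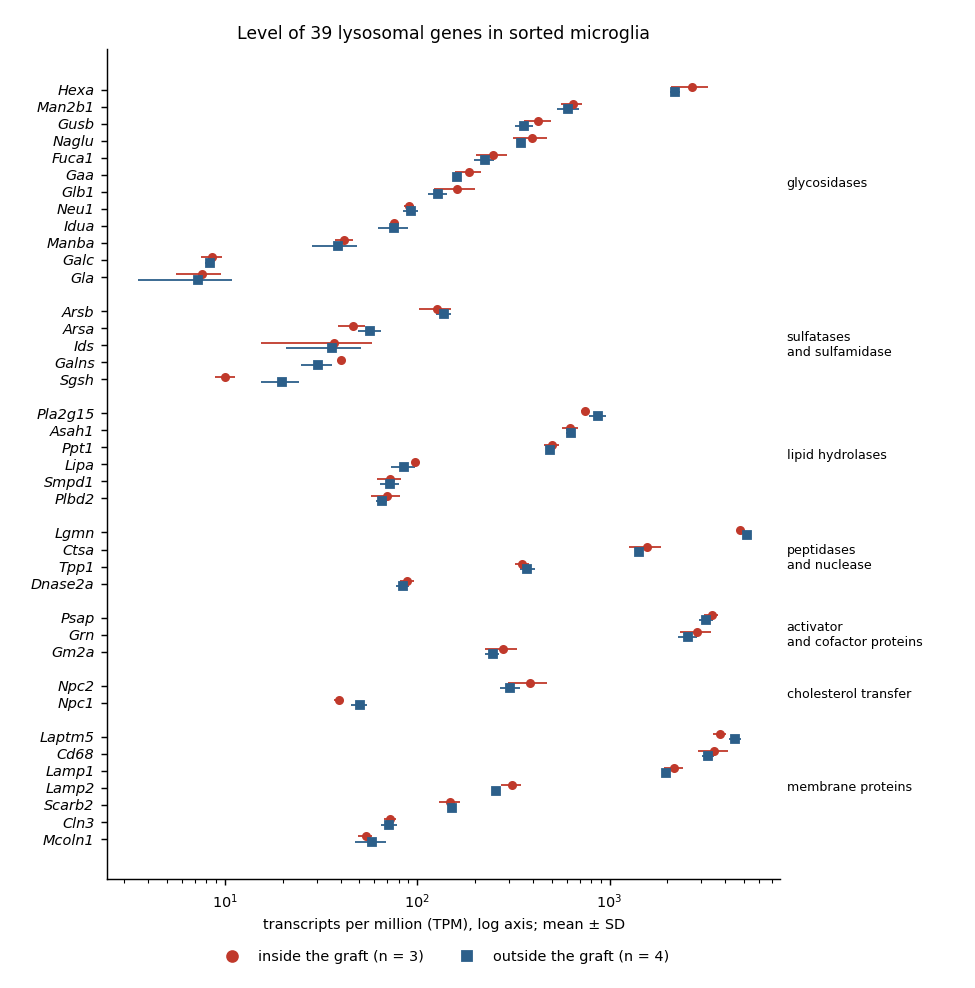
Mean TPM ± SD on a log axis for each of the 39 lysosomal genes inside the graft (red circles, n = 3) and outside it (blue squares, n = 4), by class and by falling mean level. Genes differ over a 678-fold range, while the red and blue symbols of a gene mostly lie side by side, with Sgsh the widest apart.

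None of the 39 lysosomal genes differed between the groups at an adjusted P below 0.05, in edgeR's quasi-likelihood test or in limma's voomWithQualityWeights, the test used in the study, both with Benjamini-Hochberg adjustment over all genes tested. In the background, edgeR called 15 of 15257 genes (0.0983%), all higher inside, and voomWithQualityWeights called 75 (0.492%). At the study's threshold of 0.01 the counts were 0 in edgeR and 3 (0.0197%) in voomWithQualityWeights, none of them lysosomal. The smallest adjusted P among the 39 was 0.172 for Sgsh in edgeR and 0.0663 for Lamp2 in voomWithQualityWeights. Under other settings Lamp2 passed 0.05 in voomWithQualityWeights without the filter (adjusted P = 0.0181) and with at least 10 counts required in every library (adjusted P = 0.0367), and Lamp2 and Sgsh passed in the DESeq2 Wald test (adjusted P = 0.0154 and 0.0258), which called 420 genes in all.

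The intervals set limits on what was missed. The 95% confidence interval of the edgeR log2 fold change (inside over outside) lay between -1 and 1 for 37 of 39 genes (94.9%), against 55.1% of all genes tested. Among genes with a mean of at least 10 CPM it did so for 37 of 38 lysosomal genes (97.4%), against 88.9% of all 8917. The median level was 172 TPM over the 39 and 29.6 TPM over those 8917, so these shares are not matched for level. The exceptions among the 39 were Gla, with the fewest counts among the glycosidases, and Sgsh. For 24 of 39 genes (61.5%, against 29.0% of all genes) the interval excluded a change beyond 1.5-fold in either direction. With at least 10 CPM this held for 24 of 38 (63.2%), against 49.6%. For the 39 transcripts a change of more than 2-fold between the sides of the border was thus outside the intervals, apart from Gla and Sgsh.

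The direction of the differences was uneven. The log2 fold change was above 0 for 31 of 39 lysosomal genes (79.5%) and for 49.2% of all genes tested, and its median was 0.18 over the 39 and -0.0064 over all genes. An unadjusted edgeR P below 0.05 was found for 8 of 39 (20.5%, against 9.55% of all genes). Of these, 7 were higher inside (17.9% against 5.76%), namely Galns, Glb1, Npc2, Hexa, Lamp2, Gaa and Lipa, and 1 was lower (2.56% against 3.79%), Sgsh. The libraries of the groups did not overlap for 3 genes that were higher inside, Galns, Lipa and Lamp2 (7.69% against 5.65%), and for 1 that was lower, Sgsh (2.56% against 5.02%). Both of these last shares were near or below the background, and the balance depended on the scale: on TPM 2 genes were higher (Galns and Lamp2, against 4.005% of all genes) and 4 lower (8.66% of all genes), and on total counts without TMM 2 were higher (4.97%) and 3 lower (6.44%). The forest plot gives all 39 estimates. In voomWithQualityWeights 11 of 39 had an unadjusted P below 0.05 (28.2% against 12.2%), 10 higher inside (25.6% against 7.47%) and 1 lower (2.56% against 4.71%). The edgeR count of 8 depended on the libraries. Leaving out 1 inside library gave 3 (graft 1), 4 (graft 2) or 17 (graft 3), and leaving out 1 outside library gave 6 (graft 1), 5 (graft 2), 3 (graft 3) or 2 (graft 4). The shares of all genes in those fits are not given here, so these counts cannot be set against a background.

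**Figure D2:**
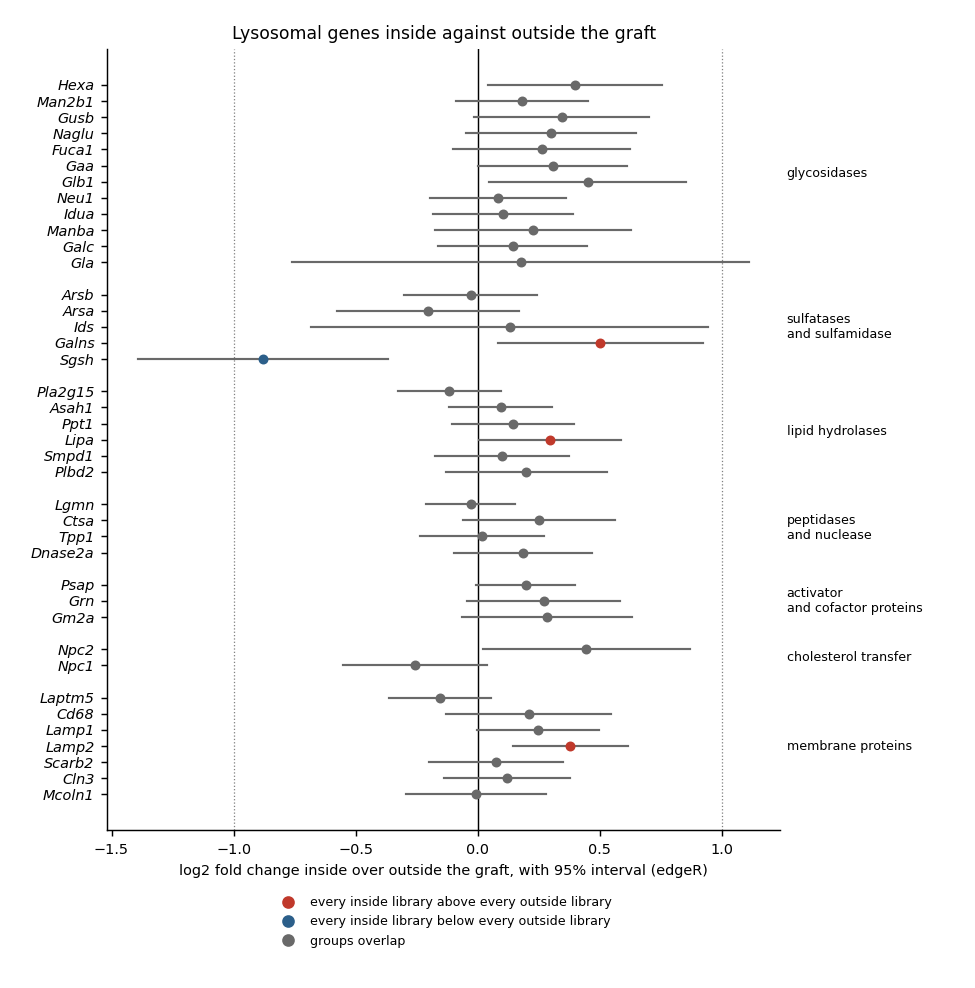
Log2 fold change between the groups (inside over outside) with its 95% confidence interval (edgeR) for each of the 39 lysosomal genes, by class. Red points mark the 3 genes with every inside library above every outside library, the blue point the 1 gene with every inside library below, and dotted lines mark a 2-fold change. All but Gla and Sgsh have intervals between the dotted lines.

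The 3 inside libraries did not move together. The summed level of the 39 genes was 33855, 38298 and 28506 CPM in inside graft 1, 2 and 3, and 31115, 30673, 29999 and 30675 CPM in outside graft 1 to 4. Inside graft 1 and 2 thus lay above all 4 outside libraries and inside graft 3 below all of them. The means were 33553 ± 4903 CPM inside (SD, n = 3) and 30615 ± 461 CPM outside (SD, n = 4), a ratio of 1.10 that lies within the inside spread.

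Gene by gene the same order recurred. Inside graft 2 was the highest of the inside libraries for 29 of 39 genes (74.4%, against 34.7% of all genes), and inside graft 3 the lowest, again for 29 of 39 (74.4% against 35.2%). For 17 of 39 genes (43.6%, against 3.91% of all genes) inside graft 1 and 2 stood above every outside library while inside graft 3 did not. These were 7 of 12 glycosidases (Hexa, Gaa, Glb1, Gusb, Naglu, Man2b1 and Fuca1), all 3 activator and cofactor proteins, 3 of 7 membrane proteins (Lamp1, Scarb2 and Cln3), 2 of 6 lipid hydrolases (Asah1 and Ppt1), Ctsa and Npc2, and none of the 5 sulfatases. Inside graft 3 stood above every outside library for 5 of 39 (12.8% against 23.5%), namely Galc, Galns, Smpd1, Lipa and Lamp2, and below every outside library for 13 of 39 (33.3% against 23.8%). These patterns were looked for after the values had been seen and are given without a test.

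Leaving out inside graft 3 raised the median log2 fold change to 0.28, and leaving out inside graft 2 lowered it to 0.072. The marker sums did not share 1 order. Those of monocytes were highest in inside graft 3 and lowest in inside graft 2. Those of microglia were highest in inside graft 1 and lowest in inside graft 3. Those of astrocytes, nearly all of it Slc1a3, followed the order of the lysosomal sum, at 287, 299 and 249 CPM in inside graft 1, 2 and 3. Their part in the result was not tested.

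**Figure D3:**
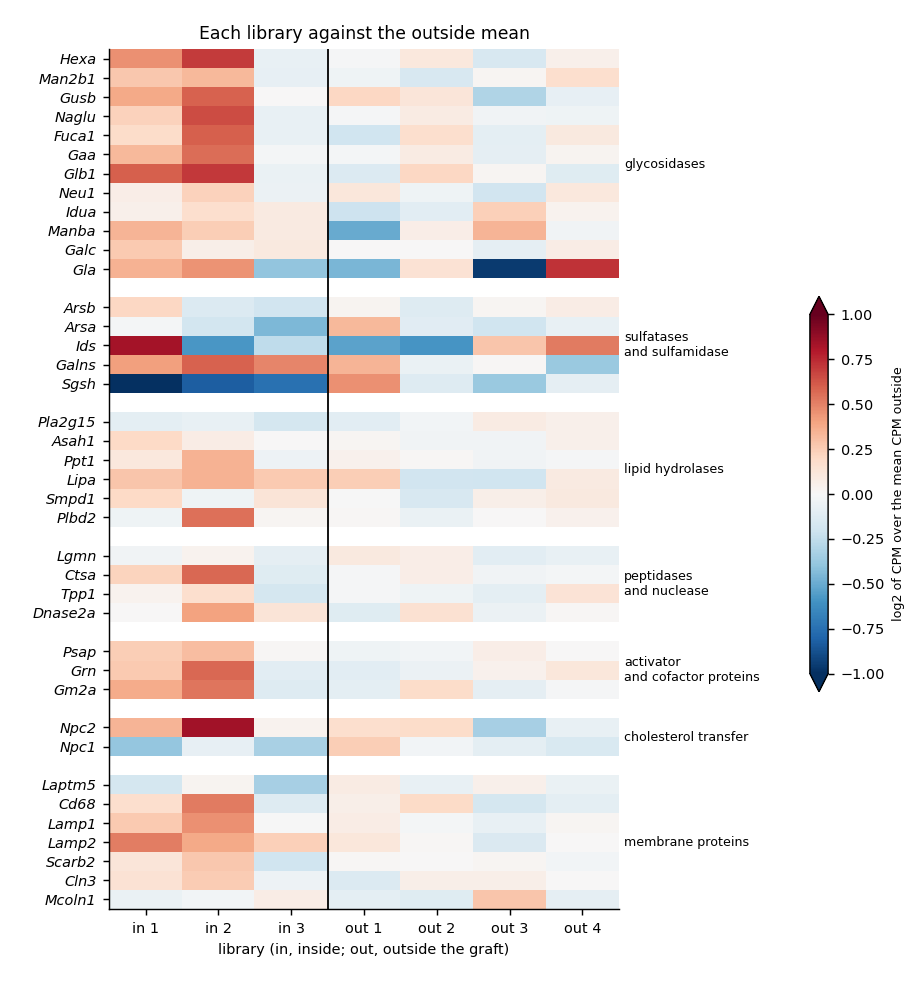
Log2 of the CPM of each lysosomal gene in each library over its mean CPM in the 4 outside libraries (red higher, blue lower; the scale ends at -1 and 1), by class. The columns of inside graft 1 and 2 are mostly red, and that of inside graft 3 is mostly pale, with Sgsh lower and Galns higher. The outside columns are mostly pale too, apart from genes such as Gla, Ids, Manba and Sgsh, whose values scatter on both sides.

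The scale of the level also mattered. On TPM the median log2 ratio of the group means was 0.070 over the 39 genes and -0.11 over all genes tested, against 0.18 and -0.0062 on TMM-scaled CPM. Both medians were thus lower on TPM, and the lysosomal median exceeded that of all genes by 0.18 on TPM and 0.19 on CPM. On TPM 25 of 39 genes were higher inside (64.1%, against 37.1% of all genes), since Idua, Neu1, Asah1, Smpd1, Tpp1 and Scarb2 turned to values just below 0, and the ratio of the sums was 1.02. The order of inside graft 1 and 2 above and inside graft 3 not above the outside libraries held for 11 of 39 genes on TPM (28.2% against 2.31%) and for 15 of 39 on total counts without TMM (38.5% against 2.71%). Inside graft 2 was the highest inside library for 18 of 39 genes on TPM and 25 on total counts. Inside graft 3 was the lowest for 23 on TPM and 25 on total counts. Shares of all genes for these counts are not given on those scales.

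The 12 glycosidases remove sugars from glycoproteins, glycolipids and glycosaminoglycans from the free end. All 12 had log2 fold changes above 0, from 0.08 for Neu1 to 0.45 for Glb1 with a median of 0.24, although none passed the adjusted threshold, Idua and Neu1 turned just below 0 on TPM, and Gla turned without outside graft 3. Glb1 (chr9:114401076-114474898, plus strand, GRCm38) encodes the β-galactosidase that degrades GM1 ganglioside and keratan sulfate. Its level was 185, 199 and 116 CPM in the inside libraries and 111, 141, 124 and 112 CPM in the outside libraries. Inside graft 1 and 2 were the highest of the 7, and inside graft 3 lay among the outside libraries. The log2 fold change was 0.45 ± 0.18 (SE; edgeR, adjusted P = 0.443), and without inside graft 2 it was 0.30 while without inside graft 3 it was 0.65.

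Hexa (chr9:59539540-59565109, plus strand) encodes the α subunit of β-hexosaminidase A, which cleaves GM2 ganglioside. It was the most abundant glycosidase of the 12, at 1906, 2256 and 1317 CPM inside and 1374, 1490, 1244 and 1439 CPM outside. As for Glb1, inside graft 3 lay within the outside range. It had a log2 fold change of 0.40 ± 0.16 (edgeR, adjusted P = 0.449), which was 0.22 without inside graft 2.

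Of the other glycosidases, Gusb (β-glucuronidase), Gaa (acid α-glucosidase, which degrades glycogen), Naglu (α-N-acetylglucosaminidase, of heparan sulfate degradation) and Fuca1 (α-fucosidase) had log2 fold changes of 0.34, 0.31, 0.30 and 0.26. Manba and Man2b1, the β- and α-mannosidases, had 0.23 and 0.18. Galc, the galactosylceramidase of myelin lipid breakdown, had 0.14 at only 8.47 TPM, and Idua, the iduronidase of heparan and dermatan sulfate, had 0.10. Gla scattered most, from 5.69 to 10.2 CPM inside and from 3.86 to 12.4 CPM outside, and its interval ran from -0.76 to 1.11.

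The sulfatases take sulfate groups off glycosaminoglycans and sulfatide, and Sgsh, the sulfamidase, takes them off the amino groups of heparan sulfate. This class held both the lowest and the highest estimate of the 39, with a median of -0.03, and 2 of 5 genes were above 0. Sgsh (chr11:119343425-119355536, minus strand) stood at 13.1, 15.7 and 16.6 CPM inside and 38.2, 25.5, 21.6 and 26.2 CPM outside, from 333, 354 and 395 counts and 716, 573, 537 and 647 counts. Every inside library was below every outside library. The log2 fold change was -0.88 ± 0.23 (edgeR, adjusted P = 0.172), with an interval from -1.39 to -0.37, and it ran from -0.98 to -0.69 over the libraries left out one at a time. Exons of Card14 on the opposite strand cover 21.6% of the exon bases of Sgsh, and reads were counted without strand, but Card14 itself had at most 1 count in any library.

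Galns (chr8:122578242-122611463, minus strand), which encodes the N-acetylgalactosamine-6-sulfatase of keratan and chondroitin sulfate, pointed the other way. It stood at 34.3, 38.8 and 36.2 CPM inside and 32.6, 24.5, 25.9 and 19.9 CPM outside, with no overlap between the groups. This gave a log2 fold change of 0.50 ± 0.19 (edgeR, adjusted P = 0.403; 0.156 in voomWithQualityWeights). Arsb, the arylsulfatase of dermatan and chondroitin sulfate and the most abundant of the class, stood at 304, 240 and 231 CPM inside and 269, 242, 267 and 277 CPM outside. Its groups overlapped and its log2 fold change was -0.03 ± 0.12 (edgeR, adjusted P = 0.977), turning to 0.02 when inside graft 2 was left out and to 0.04 when inside graft 3 was. Exons of Gm26527, a lincRNA on the opposite strand, cover 32.3% of the exon bases of Arsb. All 1948 exon bases of Gm26527 lie within that overlap, and reads were counted without strand. Its 0 counts throughout therefore do not show whether it was transcribed. Arsa, the arylsulfatase of sulfatide, had -0.20. Ids, the iduronate-2-sulfatase, had 0.13 with the widest scatter of the class, from 38.3 to 102 CPM inside and from 38.2 to 82.3 CPM outside, and its direction turned in voomWithQualityWeights (-0.06).

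The 6 lipid hydrolases had a median log2 fold change of 0.12, with 5 of 6 above 0. Lipa (chr19:34492318-34527474, minus strand), the acid lipase that releases cholesterol and fatty acids from esters taken up by the cell, had the largest estimate. It stood at 223, 234 and 221 CPM inside and 218, 161, 160 and 196 CPM outside. All inside libraries were above all outside libraries, although inside graft 3 and outside graft 1 differed by little. Lipa had a log2 fold change of 0.30 ± 0.13 (edgeR, adjusted P = 0.512), and both on total counts without TMM and on TPM the groups overlapped. Pla2g15, the phospholipase of lysosomal phospholipids, was the most abundant of the class and the only one below 0. It stood at 773, 784 and 731 CPM inside and 766, 809, 873 and 856 CPM outside, with a log2 fold change of -0.12 ± 0.09 (edgeR, adjusted P = 0.793) and an interval from -0.33 to 0.10. Plbd2, a phospholipase B-like protein, Ppt1, which removes palmitate from proteins, Smpd1, the acid sphingomyelinase, and Asah1, the acid ceramidase, had 0.20, 0.14, 0.10 and 0.09. Plbd2 turned below 0 without inside graft 2, and Smpd1 and Asah1 did on TPM.

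Among the peptidases and the nuclease, Ctsa (cathepsin A, a carboxypeptidase) had the largest estimate and Lgmn the highest level. Ctsa stood at 2463, 3145 and 1947 CPM inside and 2099, 2210, 2066 and 2084 CPM outside. The outside libraries lay close together, whereas inside graft 1 and 2 lay above all of them and inside graft 3 below. The log2 fold change was 0.25 ± 0.14 (edgeR, adjusted P = 0.634), and it was 0.06 without inside graft 2 and 0.41 without inside graft 3. Lgmn stood at 3747, 3922 and 3603 CPM inside and 4111, 4022, 3557 and 3644 CPM outside, with a log2 fold change of -0.03 ± 0.08 (edgeR, adjusted P = 0.958). Its interval, from -0.21 to 0.15, was the narrowest of the 39. Its direction turned without outside graft 1 (0.0072) and in voomWithQualityWeights (0.015). Dnase2a, the acid endonuclease that degrades the DNA of engulfed cells, had 0.19, and Tpp1, a tripeptidyl peptidase, had 0.02. Exons of Mast1 on the opposite strand cover 30.0% of the exon bases of Dnase2a, and Mast1 stood at no more than 2.24 CPM in any library.

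Cathepsin A binds Glb1, the sialidase Neu1 and Galns in a lysosomal complex and protects them from breakdown. Ctsa transcripts were in excess over those of its partners in every library, by 8.51 to 12.1 times over Glb1, 14.0 to 19.4 times over Neu1 and 30.2 to 58.8 times over Galns in TPM. Neu1 stood at 115, 128 and 105 CPM inside and 118, 106, 95.7 and 118 CPM outside, with a log2 fold change of 0.08 ± 0.13 (edgeR, adjusted P = 0.906). That value rested on single libraries, at 0.0055 with inside graft 2 left out, 0.15 with inside graft 3 left out and 0.025 when outside graft 3 was. Of the 4 partners, Glb1 and Ctsa shared the order with inside graft 2 highest and inside graft 3 within or below the outside libraries, Galns was higher in all 3 inside libraries, and Neu1 overlapped between the groups.

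The activator and cofactor proteins all had log2 fold changes above 0, with a median of 0.27. Gm2a, the activator that presents GM2 ganglioside to hexosaminidase A, stood at 416, 467 and 296 CPM inside and 302, 366, 303 and 320 CPM outside. Inside graft 3 was the lowest of the 7 libraries and inside graft 1 and 2 were the highest. Its log2 fold change was 0.28 ± 0.16 (edgeR, adjusted P = 0.629), with 0.14 without inside graft 2 and 0.45 without inside graft 3. Psap, the precursor of the saposins that assist sphingolipid hydrolases, stood at 3289, 3434 and 2788 CPM inside and 2678, 2712, 2896 and 2778 CPM outside. Its log2 fold change was 0.20 ± 0.09 (edgeR, adjusted P = 0.541). Grn, which encodes progranulin, a secreted protein that is delivered to lysosomes and processed there into granulins, had 0.27.

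The cholesterol transfer proteins pointed in opposite directions. Npc2 (chr12:84754562-84773152, minus strand), the soluble protein that hands cholesterol to Npc1, stood at 668, 944 and 541 CPM inside and 591, 598, 419 and 500 CPM outside. Inside graft 2 stood far above the others and inside graft 3 within the outside range. Npc2 had a log2 fold change of 0.45 ± 0.19 (edgeR, adjusted P = 0.493), but 0.20 without inside graft 2. Npc1, the membrane protein that exports the cholesterol, had -0.26 ± 0.13 (edgeR, adjusted P = 0.590), from 138 to 171 CPM inside and 163 to 214 CPM outside. On TMM-scaled CPM the groups overlapped. On TPM every inside library lay below every outside library for Npc1, Sgsh, Laptm5 and Lgmn, and on total counts without TMM for Npc1, Sgsh and Pla2g15.

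The membrane proteins had a median log2 fold change of 0.12, with 5 of 7 above 0. Lamp2 (chrX:38401357-38456454, minus strand), a major glycoprotein of the lysosomal membrane with a part in autophagy, stood at 1105, 1005 and 913 CPM inside and 840, 781, 701 and 777 CPM outside. All 3 inside libraries were above all 4 outside libraries, on TMM-scaled CPM, on total counts and on TPM. In edgeR the log2 fold change was 0.38 ± 0.11 (adjusted P = 0.213) and 0.43 ± 0.09 in voomWithQualityWeights (adjusted P = 0.0663), and it ran from 0.31 to 0.44 over the libraries left out one at a time. This was the smallest adjusted P of the 39 in that test.

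Laptm5, a transmembrane protein of lysosomes in blood cells and microglia, was the most abundant membrane protein in TPM. It stood at 4757, 5474 and 4284 CPM inside and 5701, 5113, 5572 and 5148 CPM outside, with a log2 fold change of -0.15 ± 0.09 (edgeR, adjusted P = 0.678) that became -0.25 without inside graft 2 and -0.074 without inside graft 3. Its groups overlapped through inside graft 2 alone, and on TPM they did not. Lamp1, the close relative of Lamp2, Cd68, the macrophage glycoprotein used as a phagocyte marker, Cln3, a multipass protein mutated in Batten disease, and Scarb2, the receptor that carries glucocerebrosidase to lysosomes, had 0.25, 0.21, 0.12 and 0.08, and Scarb2 turned below 0 without inside graft 2 and on TPM. Mcoln1, the cation channel TRPML1, had -0.0067, a direction that turned under several settings.

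**Figure D4:**
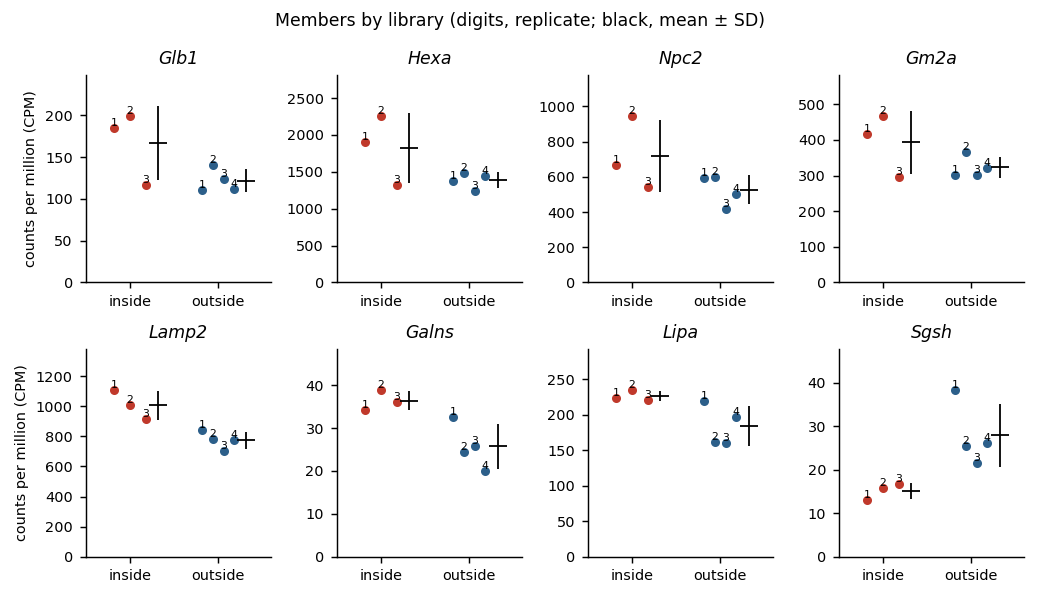
CPM of 8 lysosomal genes in each library inside (red, n = 3) and outside the graft (blue, n = 4), with the mean ± SD in black and axes from 0. For Glb1, Hexa, Npc2 and Gm2a inside graft 3 lies within or below the outside libraries, whereas for Lamp2, Galns and Lipa all inside libraries lie above, and for Sgsh below, the outside libraries.

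The promoters of the 39 genes were searched for the E-box core of the element that MiT/TFE factors bind. Lysosomal genes are known to share that element as a class, so an excess of it here is no independent finding. RefSeq windows of 300 bases (250 before to 50 after the annotated start, GRCm38.p6) were found for 35 of the 39 genes, without Galns, Asah1, Plbd2 and Npc1. The motif CACGTG, which reads the same on both strands, occurred in 11 of 35 genes (31.4%), against 8.09% of the 27025 genes in the table, or in 11 of 39 of their promoter windows (28.2%) against 7.15% of 32851. These were Arsa, Cln3, Ctsa, Gaa, Gla, Glb1, Lamp1, Lgmn, Mcoln1, Naglu and Sgsh. The longer motif GTCACGTG, searched on both strands and containing CACGTG, occurred in 10 of the 11, all but Gaa (28.6% of genes, against 2.55%). A match is a description of the letters and not a bound site. Stretches around the motif are shown for 4 of these genes, chosen because the stretches lie outside annotated exons, 5′ to 3′ on the strand of the gene with CACGTG in capitals. They cover chr8:13159085-13159160 (plus strand, Lamp1), chr9:114401015-114401050 (plus strand, Glb1), chr11:119267808-119267843 (plus strand, Gaa) and chr12:102439121-102439156 (minus strand, Lgmn).
Lamp1: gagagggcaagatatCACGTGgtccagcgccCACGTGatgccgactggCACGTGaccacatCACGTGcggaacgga
Glb1: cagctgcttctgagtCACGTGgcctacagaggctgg
Gaa: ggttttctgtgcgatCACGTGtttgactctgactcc
Lgmn: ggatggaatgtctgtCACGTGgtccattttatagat

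Lamp1 carried 4 copies, between 61 and 15 bases before its start, and the others 1 each. The median log2 fold change between the sides of the graft border was 0.18 for the 11 genes with CACGTG and 0.18 for the 24 without, and 0.15 for the 10 with GTCACGTG and 0.19 for the 25 without. No test of these differences was made. The 11 ranged from Sgsh (-0.88) to Glb1 (0.45).

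Other lysosomal genes were read from 4 further lists. Of 21 other hydrolases, 20 were tested and Dnase2b, at 0 counts in every library, was not. Their median log2 fold change was 0.05 and 14 of 20 were above 0. The highest was Plbd1, a phospholipase B-like protein of myeloid cells, at 22.6, 3.95 and 54.8 CPM inside and 0.107, 0.222, 3.34 and 0.243 CPM outside, from 576, 89 and 1300 counts against 2, 5, 83 and 6. Its log2 fold change of 4.75 ± 1.11 did not pass (edgeR, adjusted P = 0.127), though all inside libraries were above all outside ones. It was lowest inside in inside graft 2 and highest in inside graft 3, the order of the monocyte marker Chil3 (587, 67.6 and 1189 CPM inside, 0 to 14.97 CPM outside), and the part of monocytes in it was not tested. It passed 0.05 in DESeq2 (adjusted P = 0.0268), without the filter (adjusted P = 0.000791) and with the replicate block (adjusted P = 0.0469). The lowest of the list was Prcp, a carboxypeptidase, at -0.20, or -0.31 without inside graft 1 and -0.083 without inside graft 3.

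Of 13 genes of enzyme sorting and sulfatase activation, 8 were above 0, with a median of 0.21. The highest was Igf2r (chr17:12682406-12769664, minus strand), the large mannose-6-phosphate receptor that sorts newly made hydrolases, at 283, 24 and 314 counts inside and 26, 3, 0 and 17 counts outside, or 11.1, 1.06 and 13.2 CPM against 1.39, 0.133, 0 and 0.688 CPM. Inside graft 2 lay below outside graft 1, so the groups overlapped, and the log2 fold change of 3.95 ± 1.14 did not pass (edgeR, adjusted P = 0.229; 0.0178 without the filter and 0.00881 in DESeq2). The small receptor M6pr was far more abundant, at 270 to 303 CPM inside and 214 to 281 CPM outside, and had 0.21. The lowest of the list was Gga1, an adaptor of the same route, at -0.32, with all inside libraries below all outside libraries (edgeR, adjusted P = 0.529).

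Of 18 subunits of the proton pump that acidifies the lysosome, 17 were tested and 13 were above 0, with a median of 0.07. Atp6v1b2 was the highest at 0.40 (edgeR, adjusted P = 0.240; 0.0281 in DESeq2), with 202 to 246 CPM inside and 150 to 185 CPM outside, and Atp6v0a2 the lowest at -0.30. Of 17 membrane transporters and channels, 8 were above 0, with a median of -0.03, from -0.30 for Slc36a1, an amino acid transporter, to 0.60 for Mfsd8 (mean level 5.04 CPM inside, 3.31 CPM outside). Without outside graft 1 these were -0.15 for Slc36a1 and 0.36 for Mfsd8. None of the genes in these 4 lists was called in edgeR or voomWithQualityWeights. The plot of lists shows the glycosidases and the activator proteins as the classes furthest to the right of the median of all genes tested, the sulfatases and the transporters closest to it, and Plbd1 and Igf2r beyond the axis.

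**Figure D5:**
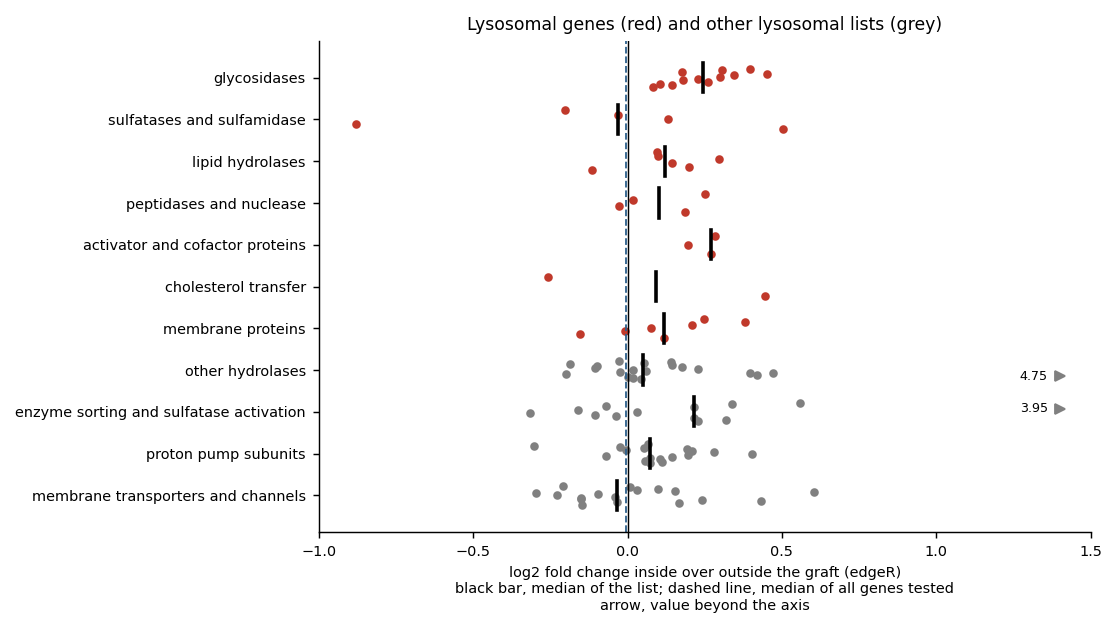
Log2 fold change between the groups (inside over outside; edgeR) of each gene in the 7 classes of the 39 lysosomal genes (red) and in 4 other lysosomal lists (grey), with the median of each in black and the median of all genes tested dashed. Class medians lie between -0.03 and 0.27, and the arrows stand for Plbd1 (4.75) and Igf2r (3.95).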

How the data were processed

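Microglia were sorted from 5xFAD mice inside (3 libraries) and outside (4 libraries) WT grafts, and groups were taken from the sample labels. By the study's methods and the submitters' processing notes, RNA was amplified by PCR before sequencing, single reads were aligned with STAR 2.7.2a to GRCm38.p6, and featureCounts 1.6.2 counted them on GENCODE M21 by gene name. The authors deposited these counts without normalization, together with the exon length of each gene. Strand was not used, each read went to the gene it overlapped most, and reads aligned to several places were left out, which lowers genes with near-identical copies. No molecular identifiers were used, so amplified copies of 1 molecule are counted as separate reads and totals overstate the molecules sampled.

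From the deposited counts, TMM-scaled CPM and TPM (by the deposited exon length) were computed, and all 15257 genes kept by filterByExpr were tested inside against outside with R 4.3.3 and edgeR 4.0.16 (glmQLFit and glmQLFTest, Benjamini-Hochberg adjustment, called below 0.05) and limma 3.58.1 (voomWithQualityWeights, the study's test, in which the library weights ran from 0.448 in outside graft 1 to 1.76 in outside graft 4). DESeq2 1.42.0 served as an alternative. Standard errors of edgeR fold changes are those implied by its F statistic. The scripts were tested on simulated data. The 39 genes, their classes and the other gene lists were chosen with earlier results of these data known, so no P value was adjusted over a list and no list was tested as a set. Values in every library are given for the member of each class with the largest absolute fold change, the one with the highest mean TPM and the Ctsa complex; in each other list the highest and lowest fold changes are named. Chil3, Mrc1, M6pr and the members of the pattern across libraries were named after their values had been seen. Exons of 15 of the 39 genes overlap another gene, 3 of them (Arsb, Dnase2a and Sgsh) over more than 20% of their bases, so their counts carry that uncertainty. All 9 pairs of libraries within a group differed by more than counting noise. Replicate numbers occur in both groups, but the labels do not say that they pair libraries by animal. Same-numbered libraries deviated together in some pairs and not in every pair, which does not settle it, and no pairing was used. Alternatives were other normalizations (RLE, upper quartile, total counts), other filters, other tests, the replicate block and each library left out. TPM and counts of direction were added after seeing the data.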

Additional observations from a re-analysis of the deposited data

Results flagged for a closer look

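Of 55 values checked over the 4 outside libraries, the 39 lysosomal genes among them, 5 had 1 library far from the other 3, where chance gives about 2.75. Mcoln1 stood at 168 CPM in outside graft 3 and at 128 to 131 CPM in the other outside libraries. Without that library its log2 fold change turned from -0.0067 to a value above 0. Plbd1 stood at 3.34 CPM in outside graft 3 and at 0.107 to 0.243 CPM in the others. The neuron markers summed to 10.99 CPM in outside graft 1 and 4.31 to 5.35 CPM in the others, and the oligodendrocyte markers to 155 CPM in outside graft 1 and 164 to 165 CPM in the others. The markers of dividing cells summed to 38.4 CPM in outside graft 2 and 10.98 to 15.4 CPM in the others. The groups of 3 inside libraries are too small for this check.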

How the results depend on the processing

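The count of genes called by edgeR (15) was 366 without the filter, 92 with a minimum of 10 counts per library, 43 with the replicate block (which leaves out outside graft 4), 420 in DESeq2, 75 in voomWithQualityWeights and 0 at an adjusted P below 0.01, and ran from 0 (without inside graft 3 or outside graft 4) through 4 (without outside graft 2) to 73 (without inside graft 2). That of voomWithQualityWeights (75) was 225, 211 and 265 under the first 3 settings, 10 without weights and 3 at 0.01, and ran from 1 (without outside graft 3 or 4) through 36 (without outside graft 1) and 48 (without inside graft 3) to 207 (without inside graft 2). Lysosomal genes called stayed at 0 in edgeR and voomWithQualityWeights under these settings, each library left out included, except for 1 without the filter and 1 with the stricter filter in voomWithQualityWeights, and were 2 in DESeq2. With the replicate block no lysosomal gene was called and their median log2 fold change was 0.19. Same-numbered libraries correlated at -0.12, 0.26 and 0.24 (replicates 1, 2 and 3) in their deviations over 8917 genes. Pairs with different numbers ran from -0.38 to 0.20, below the values of replicates 2 and 3. These values do not settle whether the numbers pair libraries, and the numbers were not taken to pair them.

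The median log2 fold change of the 39 genes (0.18) was 0.14 to 0.20 under other normalizations, filters and tests and 0.072 to 0.28 with 1 library left out. The count above 0 was 25 on TPM and 30 to 32 otherwise, and the ratio of summed levels (1.10) was 1.02 on TPM and 1.02 to 1.18 with 1 library left out. Of 343 alternatives over 23 named genes, 331 kept direction and side of the threshold, 8 passed it, and 4 turned: Arsb (0.021 and 0.044; range with 1 library left out, -0.16 to 0.044) and Lgmn (0.0072 and 0.015; range -0.062 to 0.0072). The 23 are 15 of the 39 lysosomal genes and 8 genes of the other lists. TPM was not among the 343 alternatives, and on TPM Neu1, 1 of the 23, turned to -0.021. Lysosomal genes outside the 23, such as Gla, Plbd2 and Scarb2, also turned under some settings. The causes were not tested. Each of the 39 genes had at least 96 counts in every library, and with 3 against 4 libraries the width of its interval limits the differences that could be detected.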
